A study of Mus musculus with 2 samples.

Results

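Natural killer (NK) cells of mouse tumors are described here: the 551 cells, of 11456 in all, that the deposited annotation places in the class NK, which is the single cluster C10. The cells came from tumors engrafted in 2 kinds of host mice. Hosts called S303/7A carry serine-to-alanine changes at residues 303 and 307 of the heat shock transcription factor HSF1, and WT hosts are wild type; the design text says that tumors of 4 mice were pooled. There is 1 library per genotype, with 194 NK cells in S303/7A and 357 in WT. Live CD45-positive and CD45-negative cells had been sorted from digested tumors and recombined at 5 to 1 before droplet capture and 3′ counting of transcripts by unique molecular identifiers (UMIs).

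The sources used here do not state the tumor line or the strain, sex and age of the hosts. The genotype is that of the host mice, as the design text has it. With 1 library per genotype, the effect of the allele and any other difference between the libraries cannot be told apart.

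NK cells are innate lymphocytes that kill stressed, infected or transformed cells without a rearranged antigen receptor. Their activity is set by germline-encoded receptors: activating ones such as NKp46, NK1.1, NKG2D and some Ly49 proteins signal through the adapters DAP12, DAP10 and the Fc receptor gamma chain, while inhibitory Ly49 proteins and NKG2A bind MHC class I molecules. CD8 T cells kill with the same perforin and granzyme machinery but recognise targets through the T cell receptor, and regulatory T cells (Treg) restrain immune responses. For this reason NK cells were set beside 3 T cell classes within each library: the non-cycling CD8 T cluster C06 with 441 cells in S303/7A and 387 in WT, the cycling CD8 T cluster C11 with 176 in S303/7A and 306 in WT, and Treg with 220 in S303/7A and 255 in WT.

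A level is the mean over the cells of a class of UMIs per 10000 UMIs of that cell (CP10K). A ratio between classes is the log2 ratio of these means with 0.1 CP10K added to each, so ratios of scarce genes are understated. A gene was tested where at least 10% of the cells of either class held a UMI of it in 1 library, counted at full depth. It was called higher or lower when it was at least 2-fold apart in the same direction in both libraries. A gene scarce in 1 class passed this filter only through the class where it was high, so it could hardly be called the other way. The classes come from clusters of the same transcripts, so these counts describe the classes and carry no p-value. Intervals given with UMI ratios and shares are exact 95% intervals that cover counting error only.

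The S303/7A library held 4802 cells and the WT library 6654. Median UMIs per NK cell were 5864.5 in S303/7A and 3621 in WT, against 7035 in S303/7A and 4577 in WT for C06, 13510 in S303/7A and 9747 in WT for C11, and 3702 in S303/7A and 2022 in WT for Treg. Wherever cells are counted as holding a UMI, each cell was therefore thinned to 2000 UMIs, which kept 189 NK cells in S303/7A (5 left out) and 299 in WT (58 left out), unless stated otherwise. Cell barcodes shared by the libraries numbered 48, and 4 NK cells carried one. Macrophage transcripts were found in NK cells of both libraries. Without thinning, 187 of 194 S303/7A and 250 of 357 WT NK cells held a UMI of C1qa, C1qb, C1qc, Lyz2 or Apoe, counts that are not matched for depth. In level, 8 macrophage markers summed to 16.4 CP10K in S303/7A and 7.68 in WT NK cells, against 19.2 in S303/7A and 9.86 in WT C06 cells. Of those 8 markers, none was called against C06 or C11, and 1 was called lower against Treg; their part in the differences between the libraries was not tested.

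The markers of the class were found in many of its cells. The class comes from clusters of these same transcripts, so their shares describe it and are no test of its name. Part of the class also carried T cell transcripts, as given below. After thinning, a UMI of Ncr1, which encodes the activating receptor NKp46, was found in 55.0% of S303/7A NK cells (interval 47.6 to 62.3) and 52.8% of WT NK cells (47.0 to 58.6), against 0 of 436 S303/7A and 0 of 378 WT cells of C06, where a count of 0 allows up to 0.843% and 0.971% by the exact interval. Among tumor cells it was found in 0 of 934 in S303/7A and 0 of 2332 in WT, which allows up to 0.394% in S303/7A and 0.158% in WT. Gzma, which encodes the secreted protease granzyme A, was found in 69.3% of S303/7A and 60.5% of WT NK cells, against 2.29% of S303/7A and 8.99% of WT C06 cells. In tumor cells, which should lack it, the share was 0.214% in S303/7A and 0.557% in WT. Detection of the lymphotactin gene Xcl1 reached 65.6% in S303/7A and 61.9% in WT NK cells, against 17.4% in S303/7A and 8.99% in WT C06 cells. The other 3 markers of the class, Klra7, Klrb1c and Car2, were found in 43.9% to 64.5% of NK cells of a library. Foxp3, the Treg factor, stood at 0.0179 CP10K in S303/7A and 0.0111 in WT NK cells.

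The promoters of Ncr1 and Gzma are shown because one is a receptor gene and the other an effector gene among the markers of the class. Each run is RefSeq sequence of build GRCm38.p6, 250 bases before to 50 after the annotated start, 5′ to 3′ on the gene's strand: chr7:4337465-4337764, plus strand, for Ncr1, and chr13:113100932-113101231, minus strand, for Gzma. Capitals mark the letters TGTGGT, the core bound by RUNX factors, on either strand (as ACCACA on the strand printed).
Ncr1: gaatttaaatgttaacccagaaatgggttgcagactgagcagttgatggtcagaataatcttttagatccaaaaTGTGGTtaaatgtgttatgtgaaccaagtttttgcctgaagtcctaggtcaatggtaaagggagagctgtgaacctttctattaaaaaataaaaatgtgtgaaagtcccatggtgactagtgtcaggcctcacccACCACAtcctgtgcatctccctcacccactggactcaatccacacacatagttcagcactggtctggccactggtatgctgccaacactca
Gzma: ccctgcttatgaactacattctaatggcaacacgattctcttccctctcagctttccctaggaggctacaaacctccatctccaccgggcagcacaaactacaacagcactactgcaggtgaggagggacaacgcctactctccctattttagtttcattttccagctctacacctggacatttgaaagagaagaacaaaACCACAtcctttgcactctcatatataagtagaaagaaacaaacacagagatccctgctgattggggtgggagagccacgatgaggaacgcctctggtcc
In the Ncr1 run the letters begin at base 75 of the printed strand and at base 210 of the other strand, and in the Gzma run at base 201 of the other strand. The same letters were in 7 of 9 promoters of the effector genes paired below (77.8%), in 9 of 20 of the receptor genes (45%) and in 5506 of all 32851 promoters of this length (16.8%). These are matches of letters in this window and were not tied to binding.

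Against the non-cycling CD8 T cluster C06, NK cells differed in a small part of the transcriptome: of 5760 genes tested, 116 were called higher (2.01%) and 139 lower (2.41%), with a median log2 ratio over all tested genes of −0.04 in S303/7A and −0.02 in WT. Against the cycling cluster C11, 209 of 7502 were higher (2.79%) and 432 lower (5.76%). Against Treg, 152 of 5424 were higher (2.8%) and 370 lower (6.82%). The counts for gene lists below are to be read beside these shares. Higher against all 3 classes were 77 genes, led by Klra7, Klra4, Klrb1c, Ncr1, Gzma and Tyrobp, and lower against all 3 were 47, led by Trac, Cd3e, Cd3g, Cd8b1 and Cd3d. The plot of each gene's ratio in both libraries shows these genes at the far ends. With 1 CP10K added in place of 0.1, the counts against C06 were 27 higher and 24 lower, and with 0.01 they were 184 and 224.

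**Figure D1:**
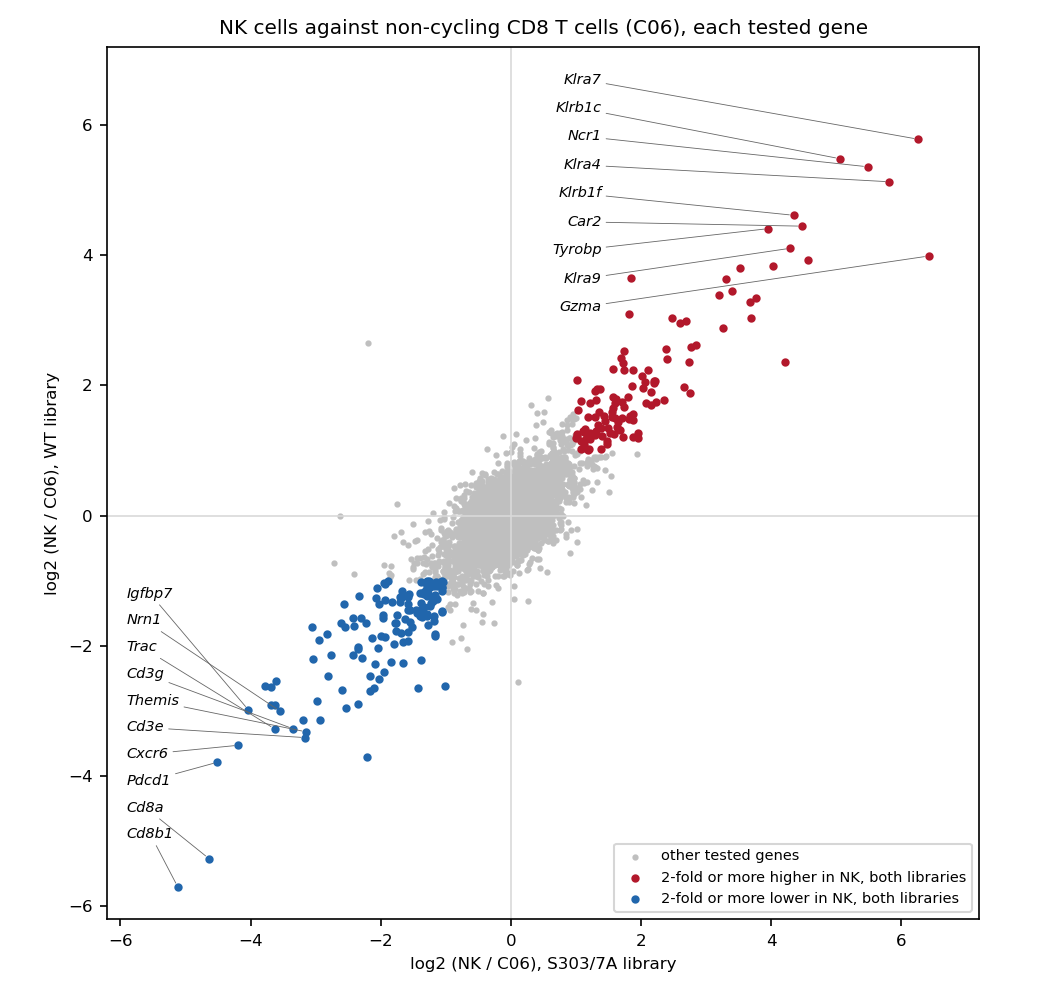
Log2 ratio of mean CP10K, NK cells over C06, in the S303/7A library (x axis) and the WT library (y axis); each point is 1 of 5760 tested genes, red points are the 116 higher and blue points the 139 lower by 2-fold or more in both libraries. Klra7, Ncr1, Klra4 and Klrb1c lie at the upper right and Cd8b1, Cd8a and Pdcd1 at the lower left.

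Several activating receptor genes were higher in NK cells. Of 18 tested against C06, 7 were called higher and 1 lower, with a median log2 ratio of 0.52 in S303/7A and 0.67 in WT. Against C11 9 of 18 were higher and 1 lower, and against Treg 12 of 17 higher and 3 lower (median 3.22 in S303/7A and 2.45 in WT). Over all tested genes 2.01% were higher and 2.41% lower against C06. Klrb1c passed the filter against C06 through NK cells only, being held by 1.36% of S303/7A and 1.29% of WT C06 cells at full depth. Such a gene could hardly be called lower, so these counts are no test of the list. Ncr1 (chromosome 7, 4337724 to 4345164, GRCm38) averaged 4.79 CP10K in S303/7A NK cells, against 0.00949 in C06, 0.199 in C11 and 0.00357 in Treg of that library. In WT NK cells it averaged 4.20, against 0.00479 in C06, 0.148 in C11 and 0.062 in Treg. Every comparator class was therefore far below the NK cells of its own library, with log2 ratios over C11 of 4.03 in S303/7A and 4.12 in WT.

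Klrb1c, which encodes NK1.1, averaged 3.86 CP10K in S303/7A and 6.22 in WT NK cells, against 0.0194 in S303/7A and 0.0413 in WT C06 cells. Its relatives Klrb1a and Klrb1f were also called higher against all 3 classes, Klrb1f at 1.97 CP10K in S303/7A and 2.35 in WT NK cells, against 0.0019 in S303/7A and 0 in WT C06 cells. Cd244, a receptor of the SLAM family, was at 1.84 in S303/7A and 2.28 in WT NK cells, against 0.543 in S303/7A and 0.904 in WT C06 cells.

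Not every activating receptor set NK cells apart from CD8 T cells. Klrk1, which encodes NKG2D, averaged 11.2 CP10K in S303/7A and 12.2 in WT NK cells, against 8.14 in S303/7A and 8.98 in WT C06 cells. Its UMI ratio over C06 was 1.42 (1.32 to 1.52) in S303/7A and 1.32 (1.23 to 1.42) in WT, under 2-fold, while over Treg it was 22.1 (16.8 to 29.8) in S303/7A and 7.44 (6.08 to 9.19) in WT. Cd226, which encodes the nectin-binding receptor DNAM-1, was lower in NK cells, at 0.135 CP10K in S303/7A and 0.286 in WT, against 1.16 in S303/7A and 1.05 in WT C06 cells. Cd160 was also below C06, at 1.24 in S303/7A and 1.02 in WT NK cells, against 2.49 in S303/7A and 2.04 in WT C06 cells, with log2 ratios of −0.95 in S303/7A and −0.93 in WT that fell short of 2-fold.

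Among inhibitory receptors the Ly49 genes were higher and the exhaustion-type checkpoint genes lower. Of 15 tested, 6 were called higher and 4 lower against C06, 6 higher and 4 lower against C11, and 10 of 16 higher and 5 lower against Treg. Over all tested genes 2.01% were higher and 2.41% lower against C06. The Ly49 genes Klra7 and Klra9 passed the filter against C06 through NK cells only. At full depth 0.907% of S303/7A and 3.88% of WT C06 cells held Klra7, and 0.68% of S303/7A and 1.03% of WT C06 cells held Klra9. Klra7, which encodes the inhibitory Ly49G, averaged 9.11 CP10K in S303/7A NK cells, against 0.0205 in C06, 0.253 in C11 and 0.00902 in Treg. WT NK cells averaged 11.6, against 0.112 in C06, 0.476 in C11 and 0.153 in Treg. Klra1 (Ly49A) and Klra9 (Ly49I) were called higher against all 3 classes as well, Klra9 at 2.26 CP10K in S303/7A and 2.15 in WT NK cells. So were the activating members of the family, Klra4 (Ly49D) at 6.34 in S303/7A and 4.72 in WT NK cells and Klra8 (Ly49H) at 1.52 in S303/7A and 1.04 in WT.

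The CD94 and NKG2 genes, whose products pair as receptors for the class Ib molecule Qa-1, did not follow the Ly49 genes. Klrd1, which encodes CD94, averaged 13.0 CP10K in S303/7A and 11.9 in WT NK cells, against 12.5 in S303/7A and 13.5 in WT C06 cells. Klrc1, which encodes the inhibitory NKG2A, averaged 1.77 in S303/7A and 2.66 in WT NK cells, against 4.10 in S303/7A and 4.55 in WT C06 cells. Its UMI ratio over C06 was 0.418 (0.358 to 0.486) in S303/7A and 0.574 (0.504 to 0.652) in WT, so it lay below C06 in both libraries and short of 2-fold in WT.

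Many checkpoint and tumor necrosis factor receptor genes were lower in NK cells. Against C06, 7 of 12 tested were called lower and none higher, with a median log2 ratio of −1.14 in S303/7A and −1.17 in WT. Against C11 5 of 13 were lower and 8 were not called, and against Treg 11 of 12 were lower and 1 higher. Over all tested genes 2.41% were lower against C06, 5.76% against C11 and 6.82% against Treg. A gene scarce in NK cells, such as Havcr2, could hardly be called higher, so these counts are no test of the list. Pdcd1, which encodes PD-1, averaged 0.144 CP10K in S303/7A and 0.249 in WT NK cells, against 5.45 in S303/7A and 4.72 in WT C06 cells. Lag3 averaged 0.609 in S303/7A and 1.15 in WT NK cells, against 5.76 in S303/7A and 5.63 in WT C06 cells. Havcr2, which encodes TIM-3, averaged 0.0302 in S303/7A and 0.00521 in WT NK cells, against 0.652 in S303/7A and 0.72 in WT C06 cells. Tnfrsf4 (OX40) marked the distance from Treg, at 0.0752 in S303/7A and 0.156 in WT NK cells, against 18.1 in S303/7A and 28.4 in WT Treg.

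**Figure D2:**
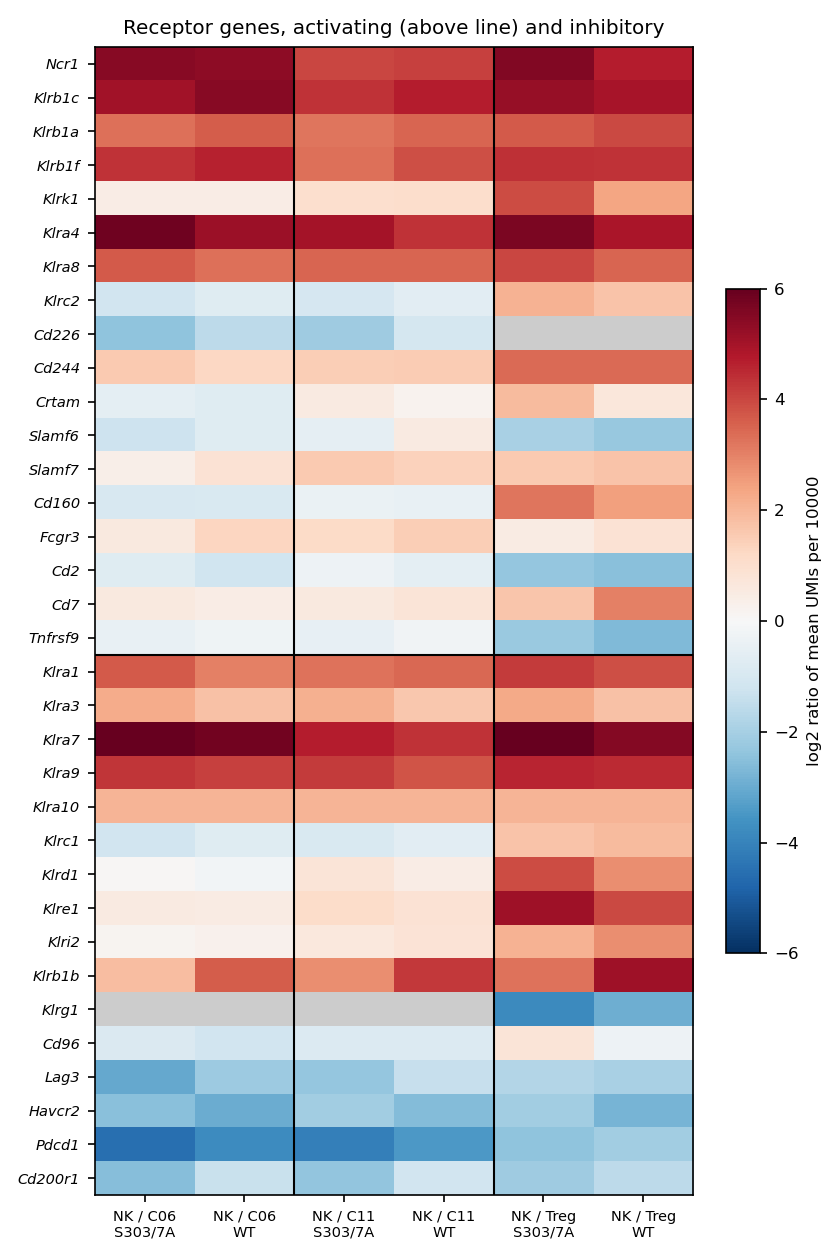
Log2 ratio of mean CP10K (colour) of each activating receptor gene (above the line) and inhibitory receptor gene (below it) in NK cells over C06, C11 and Treg, with the S303/7A library left of the WT library in each pair of columns; grey cells were not tested. The Klrb1 genes shown, Ncr1 and the Ly49 (Klra) genes are red in all columns, Klrk1, Klrd1 and Klre1 mainly against Treg, and Pdcd1, Lag3, Havcr2 and Cd200r1 are blue in all columns.

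Adapters divided along the same line. Tyrobp, which encodes DAP12, the partner of activating Ly49 proteins, averaged 28.5 CP10K in S303/7A NK cells, against 1.75 in C06, 1.97 in C11 and 1.59 in Treg. It averaged 32.5 in WT NK cells, against 1.43 in C06, 1.93 in C11 and 2.01 in Treg. Fcer1g, which encodes the Fc receptor gamma chain used by NKp46, averaged 25.5 in S303/7A and 21.2 in WT NK cells, against 2.57 in S303/7A and 2.77 in WT C06 cells. Both are also macrophage genes: after thinning 94.2% of S303/7A and 96.3% of WT NK cells held a Tyrobp UMI, against 23.6% of S303/7A and 20.6% of WT C06 cells and 8.57% of S303/7A and 5.66% of WT tumor cells.

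In all, 6 of 19 adapter and proximal signalling genes were called higher against C06 and 3 lower, beside 2.01% and 2.41% of all tested genes. Txk, a TEC-family kinase, was at 3.66 CP10K in S303/7A and 4.77 in WT NK cells, against 0.423 in S303/7A and 0.695 in WT C06 cells, and Sh2d1b1 (EAT-2), Syk and Lat2 were higher as well. Lat, the scaffold of T cell receptor signalling, was lower at 0.668 in S303/7A and 0.59 in WT NK cells, against 2.32 in S303/7A and 3.2 in WT C06 cells. Hcst, which encodes DAP10, the partner of NKG2D, stood at 5.07 in S303/7A and 4.13 in WT NK cells, against 6.10 in S303/7A and 5.80 in WT C06 cells.

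A minority of cytotoxic granule genes separated NK cells from CD8 T cells. Of 20 tested against C06, 4 were called higher and 1 lower, with a median log2 ratio of 0.19 in S303/7A and 0.35 in WT. Against C11 7 of 19 were higher and 1 lower, and against Treg 8 of 17 higher and 2 lower. Over all tested genes 2.01% were called higher against C06, 2.79% against C11 and 2.8% against Treg. Gzma is a marker of the class, and Gzma and Gzmc passed the filter against Treg through NK cells only. These counts are therefore no test of the list. Gzma (chromosome 13, 113093825 to 113100981) averaged 41.5 CP10K in S303/7A NK cells, against 0.386 in C06, 1.05 in C11 and 0.243 in Treg. It averaged 70.2 in WT NK cells, against 4.33 in C06, 2.72 in C11 and 0.128 in Treg. The UMI ratio over C06 was 114 (91.9 to 144) in S303/7A and 12.6 (11.7 to 13.5) in WT. Few cells of C06 carried the transcript: 13 S303/7A and 48 WT cells held it without thinning, and 5 of them held 87.8% of its UMIs in S303/7A and 58.7% in WT.

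Gzmb, the caspase-activating granzyme, averaged 23.6 CP10K in S303/7A NK cells, against 6.33 in C06, 7.28 in C11 and 22.6 in Treg, and 40.5 in WT NK cells, against 14.6 in C06, 11.7 in C11 and 33.7 in Treg. It thus set NK cells apart from both CD8 T clusters and not from Treg, over which its UMI ratio was 1.19 (1.12 to 1.27) in S303/7A and 1.20 (1.14 to 1.26) in WT. Gzmc averaged 15.4 in S303/7A and 19.2 in WT NK cells, against 1.25 in S303/7A and 1.28 in WT C06 cells. Its mean rested on a minority of cells: 70 S303/7A and 127 WT NK cells held it without thinning, and 5 cells held 57.5% of its 3079 UMIs in S303/7A and 25.4% of its 3867 UMIs in WT.

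Prf1, which encodes the pore-forming perforin, averaged 4.80 CP10K in S303/7A and 5.40 in WT NK cells, against 2.59 in S303/7A and 1.99 in WT C06 cells, with log2 ratios of 0.87 in S303/7A and 1.4 in WT. Nkg7, which encodes a granule membrane protein, was nearly level, at 32.2 in S303/7A and 39.3 in WT NK cells, against 35.7 in S303/7A and 44.1 in WT C06 cells. Serpinb9, which encodes an inhibitor of granzyme B, was higher in NK cells, at 2.43 in S303/7A and 3.63 in WT, against 0.884 in S303/7A and 0.873 in WT C06 cells. The 1 granule gene called lower was Gzmk, at 0.0589 in S303/7A and 0.104 in WT NK cells, against 0.325 in S303/7A and 1.18 in WT C06 cells.

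**Figure D3:**
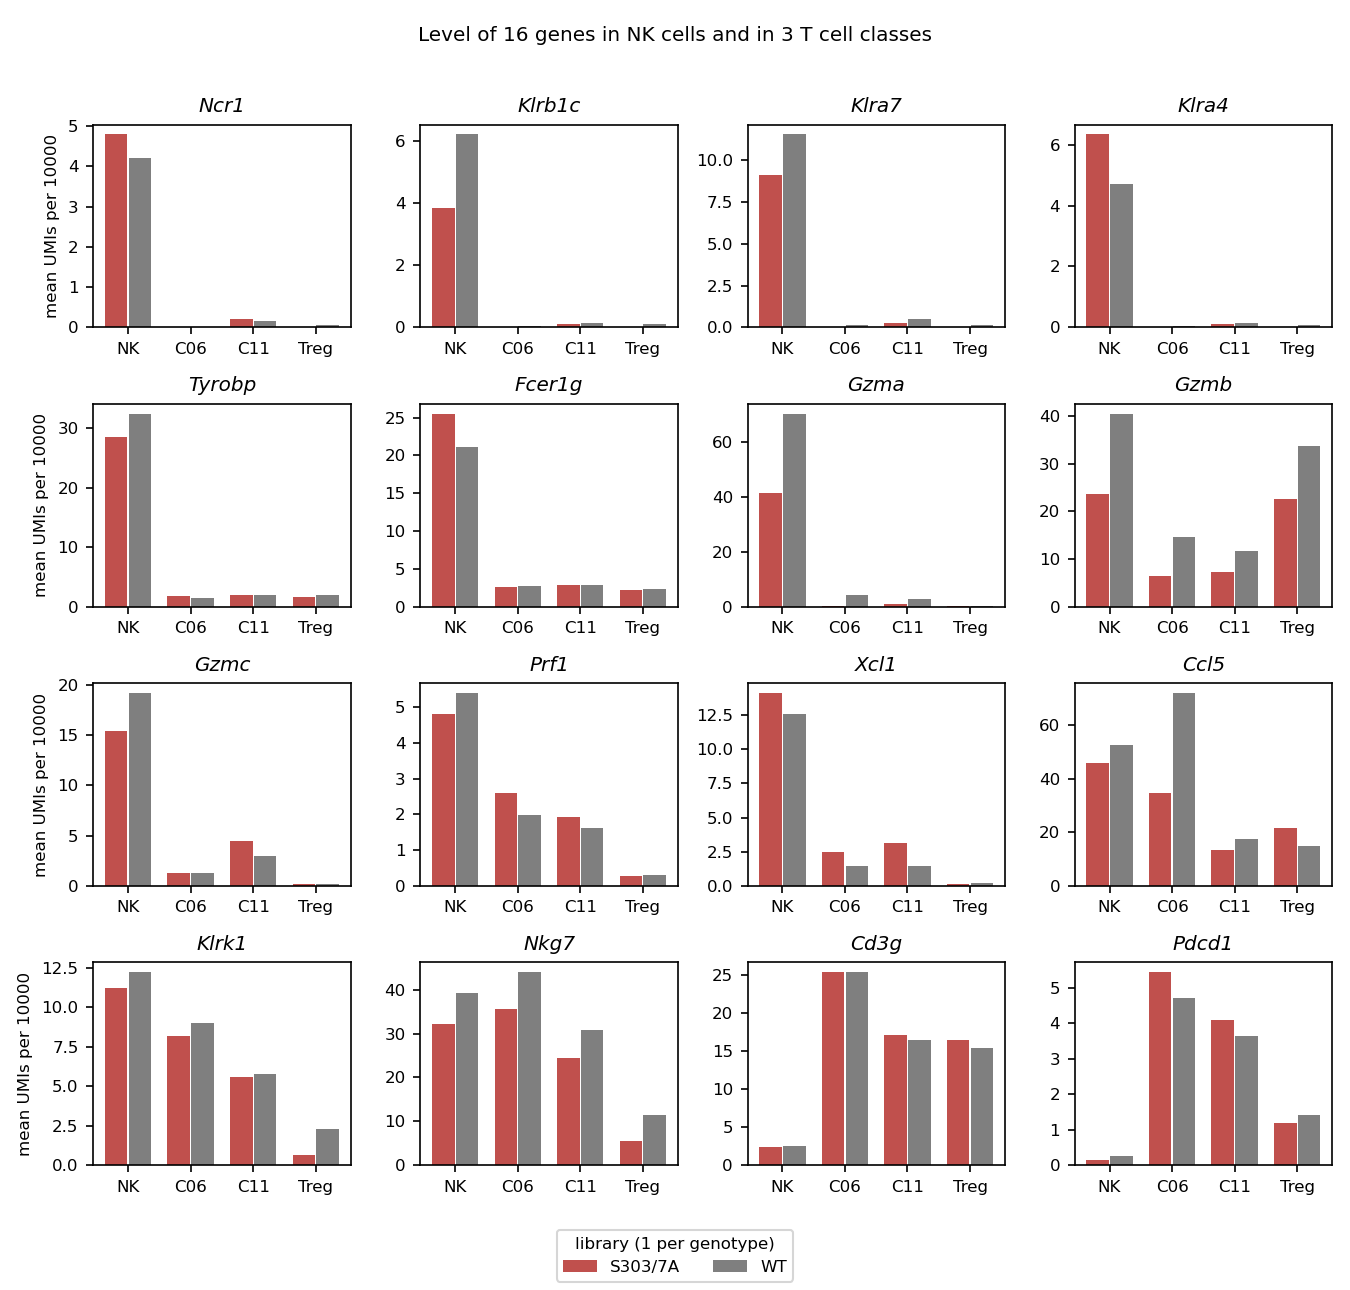
Mean CP10K (y axis, own scale per gene) of 16 genes in NK cells, C06, C11 and Treg, with S303/7A bars in red and WT bars in grey; each bar is 1 library, so there is no error bar. Ncr1, Klrb1c, Klra7, Klra4, Tyrobp, Fcer1g and Gzma stand out in NK cells of both libraries, Gzmb in NK cells and Treg, and Cd3g and Pdcd1 in the T cell classes.

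Secreted signals differed gene by gene. Of 11 cytokine and chemokine genes tested against C06, 1 was called higher and 3 lower, beside 2.01% and 2.41% of all tested genes. Xcl1, whose product attracts cross-presenting dendritic cells, was the higher one, at 14.1 CP10K in S303/7A and 12.6 in WT NK cells, against 2.47 in S303/7A and 1.44 in WT C06 cells. Ifng, which encodes interferon gamma, was lower at 0.944 in S303/7A and 1.27 in WT NK cells, against 2.0 in S303/7A and 8.29 in WT C06 cells. In WT C06, 5 cells held 65.5% of the Ifng UMIs, 460 of them in 1 cell. Ccl1 and Csf1 were the other lower genes, and Ccl5 was within 2-fold of C06, at 45.9 in S303/7A and 52.6 in WT NK cells, against 34.7 in S303/7A and 72.2 in WT C06 cells.

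Transcription factor genes moved in both directions: 5 of 28 were called higher and 5 lower against C06, and 9 of 29 higher and 4 lower against C11. Over all tested genes 2.01% were higher and 2.41% lower against C06, and 2.79% and 5.76% against C11. Eomes, a T-box factor of NK cell identity, averaged 1.75 CP10K in S303/7A and 1.34 in WT NK cells, against 0.191 in S303/7A and 0.267 in WT C06 cells. Irf8 averaged 7.75 in S303/7A and 12.5 in WT NK cells, against 2.28 in S303/7A and 2.38 in WT C06 cells. Tcf7 (TCF-1) and the quiescence factor gene Klf2 were also higher, Klf2 at 2.27 in S303/7A and 3.56 in WT NK cells, against 0.354 in S303/7A and 0.517 in WT C06 cells but 2.15 in S303/7A and 3.33 in WT Treg. Tox, a factor tied to T cell exhaustion, was lower at 0.355 in S303/7A and 0.295 in WT NK cells, against 2.64 in S303/7A and 2.43 in WT C06 cells, as were Bcl11b, Nr4a2, Batf and Rora. Tbx21, which encodes T-bet, was at 0.671 in S303/7A and 0.684 in WT NK cells, against 0.593 in S303/7A and 0.551 in WT C06 cells.

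Most genes of the T cell receptor complex and coreceptors were lower in NK cells than in C06, but not at 0. Trbc1, a constant segment of the beta chain, was held by most NK cells, as given below. Against C06, 14 of 17 genes tested were called lower and 1 higher, with a median log2 ratio of −2.35 in S303/7A and −2.40 in WT. Over all tested genes 2.41% were lower and 2.01% higher. Cd3g averaged 2.41 CP10K in S303/7A and 2.53 in WT NK cells, against 25.4 in both C06 libraries, and after thinning 18.0% of S303/7A and 18.4% of WT NK cells held a UMI of it, against 1.18% of S303/7A and 0.943% of WT tumor cells. Cd8a stood at 0.273 in S303/7A and 0.162 in WT NK cells, against 9.20 in S303/7A and 9.99 in WT C06 cells. The 1 gene called higher was Trdc, the constant segment of the delta chain of the T cell receptor, at 2.31 in S303/7A and 1.45 in WT NK cells, against 0.0468 in S303/7A and 0.00828 in WT C06 cells.

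A minority of cytokine and chemokine receptor genes separated NK cells from CD8 T cells. Of 20 tested against C06, 4 were called higher and 2 lower, beside 2.01% and 2.41% of all tested genes. The list was chosen with earlier results of these data known, so its counts are no test of it. Of 21 against C11, 4 were higher and 1 lower, beside 2.79% and 5.76% of all tested genes. Of 19 against Treg, 0 were higher and 6 lower, beside 2.8% and 6.82%. Ccr2, a chemokine receptor for monocyte-attracting ligands, averaged 4.79 CP10K in S303/7A and 5.08 in WT NK cells, against 0.164 in S303/7A and 0.914 in WT C06 cells and 5.64 in S303/7A and 7.35 in WT Treg. Cxcr6, which guides T cells to its ligand in tissue, averaged 0.384 in S303/7A and 0.767 in WT NK cells, against 8.72 in S303/7A and 9.91 in WT C06 cells.

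Tissue residency genes, several of which mark the related type 1 innate lymphoid cells (ILC1), were more often lower than higher: of 16 tested, 0 were called higher and 4 lower against C06, 1 higher and 3 lower against C11, and 1 higher and 7 lower against Treg. Itga1, which encodes the ILC1 integrin CD49a, was the 1 called higher against C11 and Treg, at 0.354 CP10K in S303/7A and 0.673 in WT NK cells, against 0.0989 in S303/7A and 0.155 in WT C11 cells and 0.148 in S303/7A and 0.37 in WT C06 cells. Il7r stood at 0.0793 in S303/7A and 0.37 in WT, and Zfp683 (Hobit) at 0 in S303/7A and 0.00832 in WT. Of 12 NK maturation genes tested, 2 were called higher and 0 lower against C06, 4 higher and 0 lower against C11, and 3 higher and 4 lower against Treg. Itgam (CD11b), a late maturation gene, was at 0.261 in S303/7A and 0.123 in WT NK cells, against 0.0324 in S303/7A and 0.0373 in WT C06 cells, and S1pr5 at 0.25 in S303/7A and 0.175 in WT NK cells, against 0 in the 3 T cell classes of both libraries. Itgax and Cd9 were the 2 of 12 integrin and adhesion genes called higher against C06. Over all tested genes 2.01% were higher and 2.41% lower against C06, 2.79% and 5.76% against C11, and 2.8% and 6.82% against Treg.

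Other programs separated NK cells mainly from Treg or from the cycling CD8 T cells. Proliferation genes were called lower for 20 of 20 against C11, 11 of 15 against Treg and 0 of 12 against C06, with Mki67 at 0.0468 CP10K in S303/7A and 0.0613 in WT NK cells, against 1.73 in S303/7A and 2.03 in WT C11 cells. Glycolysis and hypoxia genes were lower for 3 of 18 against C06, 4 of 18 against C11 and 9 of 18 against Treg and higher for none, with Gapdh at 12.2 in S303/7A and 10.4 in WT NK cells, against 30.0 in S303/7A and 24.6 in WT C06 cells. Of 30 interferon response genes, 3 were called higher and 1 lower against C06, 9 higher and 1 lower against C11, and 1 higher and 9 lower against Treg. Median log2 ratios of these genes were 0.84 in S303/7A and 0.85 in WT against C11, and −1.02 in S303/7A and −0.85 in WT against Treg. Ifi204, an interferon-inducible DNA sensor gene, was higher against all 3 classes, at 1.35 in S303/7A and 1.34 in WT NK cells, against 0.536 in S303/7A and 0.405 in WT C06 cells. Ifi27l2a, also interferon-inducible, was lower against all 3, at 3.26 in S303/7A and 3.39 in WT NK cells, against 26.4 in S303/7A and 25 in WT C06 cells and 50.1 in S303/7A and 46.4 in WT Treg. None of 20 to 22 heat shock response genes was called in either direction against any of the 3 classes, Hspa8 being at 15.6 in S303/7A and 17.2 in WT NK cells, against 15.6 in S303/7A and 20.7 in WT C06 cells. Over all tested genes 2.01% were higher and 2.41% lower against C06, 2.79% and 5.76% against C11, and 2.8% and 6.82% against Treg. A list this short would hold few calls at such shares, so its count of 0 says little about the list.

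Between the genotypes, NK cells differed at few genes: of 4860 tested, 14 were at least 2-fold higher in S303/7A (0.288%) and 23 lower (0.473%), in 1 library each. The counts were 53 and 73 in thinned cells and 42 and 59 without NK cells that held a T cell UMI, so they rest on these choices. No heat shock response gene among 19, no activating receptor gene among 16 and no granule gene among 16 was among them. At shares of 0.288% and 0.473% lists this short would hold few or no calls, so these counts say little about the lists. Of 12 tissue residency genes, 2 were lower and 0 higher, with a median log2 ratio of −0.81, against −0.015 over all tested genes. Of 8 macrophage markers, 2 were higher and 0 lower, with a median of 0.82. Of 12 genes of the inhibitory receptor list, Klrb1b and Klri2 were lower in S303/7A. Klri2, which encodes a receptor that pairs with the Klre1 product, stood at 0.389 CP10K in S303/7A and 1.07 in WT NK cells, and its level in C06 differed alike, at 0.338 in S303/7A and 0.887 in WT. Hopx had the same pattern, at 0.973 in S303/7A and 3.01 in WT NK cells and at 0.744 in S303/7A and 2.38 in WT C06 cells. Klrb1b departed from it, at 1.35 in S303/7A and 4.13 in WT NK cells, against 0.305 in S303/7A and 0.238 in WT C06 cells. The Apoe level, 5.20 in S303/7A and 1.08 in WT NK cells, moved with that of the macrophages, where it was 123 in S303/7A and 38.8 in WT.

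Receptors and effectors of single NK cells were then set side by side as 666 pairs from 37 genes, by Spearman's rho across thinned NK cells within each library. A pair is called together or apart when rho is at least 0.2 in size and has the same sign in both libraries. Counts per cell are sparse, all genes of a cell share its library and its depth, and cells are not replicates, so rho is a description with no p-value. Together were 16 pairs (2.4%) and apart 7 pairs (1.05%), and 368 of the 666 were under 0.1 in size in both libraries. Of 78 effector-effector pairs 12 were together and 6 apart, of 276 receptor-receptor pairs 3 were together, and of 312 effector-receptor pairs 1 was together and 1 apart. The called pairs were thus mostly pairs of effectors.

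The effector pairs formed a block of granule and chemokine genes. Ccl3 and Ccl4, inflammatory chemokine genes, had a rho of 0.50 in both libraries, Gzma and Gzmb 0.53 in S303/7A and 0.35 in WT, and Gzma and Prf1 0.33 in S303/7A and 0.38 in WT. Of NK cells with a Gzma UMI, 111 of 131 in S303/7A (84.7%) and 156 of 181 in WT (86.2%) also held Gzmb, against 21 of 58 in S303/7A (36.2%) and 87 of 118 in WT (73.7%) without a Gzma UMI. Gzma and Ccl3, at 0.39 in S303/7A and 0.197 in WT, lay just outside the limit.

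Ltb, Xcl1 and Gzmc were apart from single members of this block and not from all of it. Ltb was apart from Gzma, Gzmb and Prf1, Xcl1 from Gzma only, and Gzmc from Gzma and Ccl5 only. At 1000 UMIs per cell 2 of these pairs missed the limit. Ltb and Prf1 had −0.18 in S303/7A and −0.09 in WT, and Ltb and Gzmb −0.195 in S303/7A and −0.30 in WT. Without NK cells holding a T cell UMI, Gzmc and Ccl5 missed it, with −0.41 in S303/7A and −0.17 in WT. Gzma and Ltb, which encodes lymphotoxin beta, had a rho of −0.34 in S303/7A and −0.44 in WT, and Gzma and Xcl1 −0.32 in S303/7A and −0.34 in WT. Ltb was found in 45.0% of S303/7A and 43.6% of WT NK cells with Gzma, against 69.0% of S303/7A and 78.8% of WT NK cells without it. Xcl1 was found in 59.5% of S303/7A and 51.9% of WT NK cells with Gzma, against 79.3% of S303/7A and 77.1% of WT NK cells without it. Both transcripts were held by 41.3% of S303/7A and 31.4% of WT NK cells, so Gzma and Xcl1 marked overlapping rather than separate cells. Gzma and Gzmc, neighbours in function as granzymes, were also apart at −0.28 in S303/7A and −0.22 in WT, and Gzmc and Ccl5 at −0.42 in S303/7A and −0.20 in WT.

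**Figure D4:**
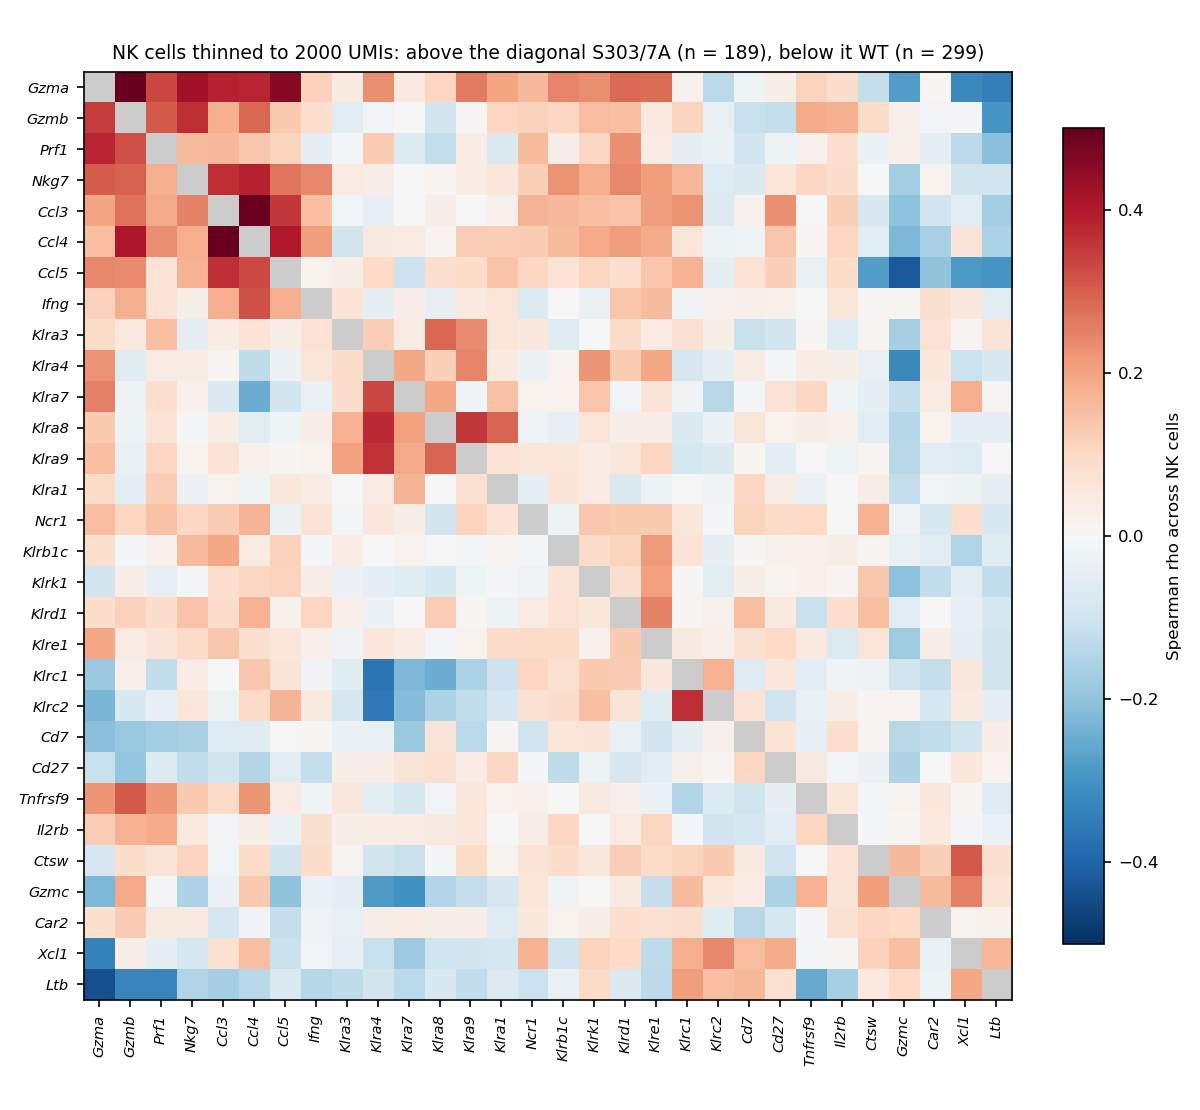
Spearman's rho (colour) for pairs of receptor and effector genes across NK cells thinned to 2000 UMIs, S303/7A above the diagonal (n = 189 cells) and WT below it (n = 299 cells). Granule and chemokine genes form a red block at the upper left, Ltb, Xcl1 and Gzmc are blue against Gzma, and several pairs of Ly49 (Klra) genes are red; 30 of the 37 genes are drawn.

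Over all 1919 genes found in at least 10% of the thinned NK cells of both libraries, 12 were together with Gzma (0.625%) and 19 apart (0.99%), by the same limit. Irf8, a transcription factor gene, had the highest smaller value of the 12, with a rho of 0.35 in S303/7A and 0.39 in WT, and Serpinb9 was among the 12, at 0.36 in S303/7A and 0.21 in WT. Apart were Cd3d at −0.32 in S303/7A and −0.33 in WT, Cd3g at −0.32 in S303/7A and −0.30 in WT, and Ly6c2 at −0.25 in S303/7A and −0.29 in WT, while ribosomal protein genes among the 19 are left unnamed. With Gzmc, 5 genes were together (0.261%), among them S100a6 at 0.23 in S303/7A and 0.41 in WT, and 5 apart (0.261%), among them Klf2 at −0.21 in S303/7A and −0.26 in WT. Gzma and Gzmc were chosen for this search after the pair values had been seen.

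The Ly49 genes lie together on chromosome 6 and encode lectin-like receptors that single NK cells express in varied combinations. Their transcripts share sequence near the counted 3′ end, so UMIs could be misassigned between them: of the windows of 31 bases in the last 500 transcript bases, Klra3 shared 45.1% with Klra9, and Klra8 shared 33.8% with Klra9. Promoters of the pairs closest in this window are shown, from RefSeq GRCm38.p6, all on the minus strand, at chr6:130067222-130067521 for Klra4, chr6:130129849-130130148 for Klra8, chr6:130337577-130337876 for Klra3 and chr6:130193063-130193362 for Klra9. Capitals mark the longest run that the members of a pair have in common, Klra4 with Klra8 and Klra3 with Klra9.
Klra4: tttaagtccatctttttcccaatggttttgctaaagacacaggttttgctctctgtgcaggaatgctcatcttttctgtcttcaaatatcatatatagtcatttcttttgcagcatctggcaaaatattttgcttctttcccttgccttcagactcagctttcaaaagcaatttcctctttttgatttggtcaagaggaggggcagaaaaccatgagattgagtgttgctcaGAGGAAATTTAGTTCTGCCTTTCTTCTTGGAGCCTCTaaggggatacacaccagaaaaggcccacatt
Klra8: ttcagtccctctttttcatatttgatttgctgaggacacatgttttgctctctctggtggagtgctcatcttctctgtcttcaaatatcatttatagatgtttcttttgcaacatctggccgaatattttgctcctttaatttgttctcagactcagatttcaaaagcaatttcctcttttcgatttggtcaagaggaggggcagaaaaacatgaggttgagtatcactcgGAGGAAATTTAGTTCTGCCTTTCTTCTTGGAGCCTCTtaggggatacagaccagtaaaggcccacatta
Klra3: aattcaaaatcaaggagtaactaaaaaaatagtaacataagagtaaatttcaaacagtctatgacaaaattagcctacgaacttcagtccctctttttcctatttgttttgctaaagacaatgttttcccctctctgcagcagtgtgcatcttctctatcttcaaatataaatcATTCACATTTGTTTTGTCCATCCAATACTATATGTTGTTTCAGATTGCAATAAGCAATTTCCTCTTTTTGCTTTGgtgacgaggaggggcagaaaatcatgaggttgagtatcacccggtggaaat
Klra9: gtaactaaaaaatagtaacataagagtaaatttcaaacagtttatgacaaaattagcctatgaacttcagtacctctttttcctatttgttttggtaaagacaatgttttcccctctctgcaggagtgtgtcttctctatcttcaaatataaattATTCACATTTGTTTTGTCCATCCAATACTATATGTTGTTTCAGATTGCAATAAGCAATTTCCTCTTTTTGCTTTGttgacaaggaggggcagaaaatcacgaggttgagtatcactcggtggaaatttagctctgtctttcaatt
The Klra4 and Klra8 promoters, both of activating receptors, were identical at 259 of 299 overlapping bases with a common run of 37, and those of the inhibitory Klra3 and Klra9 at 191 of 281 with a common run of 75. Between Klra4 and the inhibitory Klra7, the values were 98 of 297 bases and a run of 9.

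Transcripts of the family were found together in the same NK cells. Klra8 and Klra9 had a rho of 0.35 in S303/7A and 0.29 in WT, Klra4 and Klra9 0.25 in S303/7A and 0.36 in WT, and Klra3 and Klra9 0.24 in S303/7A and 0.20 in WT. At 1000 UMIs per cell, only Klra4 and Klra9 of these 3 pairs kept the limit, with 0.27 in both libraries; Klra8 and Klra9 had 0.21 in S303/7A and 0.18 in WT, and Klra3 and Klra9 0.03 in S303/7A and 0.11 in WT. Klra9 was found in 21 of 36 S303/7A and 20 of 40 WT NK cells with Klra8, against 30 of 153 S303/7A and 44 of 259 WT NK cells without it. This pair, like Klra3 and Klra9, shares 3′ sequence. Klra4 and Klra7, which share 5.32% of the Klra4 windows, lay just outside the limit at 0.19 in S303/7A and 0.33 in WT: Klra7 was found in 71 of 104 S303/7A and 104 of 133 WT NK cells with Klra4, against 40 of 85 S303/7A and 66 of 166 WT NK cells without it.

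Klra4 was the 1 receptor that met the limit with an effector in each direction. Of NK cells with Klra4, 84 of 104 in S303/7A (80.8%, 71.9 to 87.8) and 98 of 133 in WT (73.7%, 65.3 to 80.9) held Gzma, against 47 of 85 in S303/7A (55.3%, 44.1 to 66.1) and 83 of 166 in WT (50%, 42.2 to 57.8) of NK cells without it. Gzmc went the other way, in 18 of 104 S303/7A (17.3%) and 26 of 133 WT (19.5%) NK cells with Klra4, against 37 of 85 S303/7A (43.5%) and 75 of 166 WT (45.2%) NK cells without it. The rho of Klra4 and Gzma was 0.23 in S303/7A and 0.22 in WT, and was under the limit at 1000 UMIs per cell, with 0.17 in S303/7A and 0.14 in WT. That of Klra4 and Gzmc, −0.32 in S303/7A and −0.28 in WT, was also under the limit at 1000 UMIs, with −0.17 in S303/7A and −0.18 in WT. Without NK cells that held any of 6 T cell transcripts, the rho of Klra4 and Gzma was 0.08 in S303/7A and 0.23 in WT. That of Klra4 and Gzmc in the same cells was −0.40 in S303/7A and −0.34 in WT.

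Ncr1, the marker receptor, met the limit with no effector. Gzma was found in 76.9% of S303/7A and 67.7% of WT NK cells with Ncr1, against 60.0% of S303/7A and 52.5% of WT NK cells without it, and its rho with Gzma was 0.16 in S303/7A and 0.15 in WT. Without NK cells holding a T cell UMI the gap was narrower, with 82.0% of S303/7A and 71.3% of WT cells with Ncr1, against 73.3% of S303/7A and 66.3% of WT cells without it. Klrb1c and Prf1 were nearly unlinked, at 0.03 in S303/7A and 0.02 in WT. Klra8 was found in 6 of 44 S303/7A and 1 of 97 WT NK cells with Klrc1, against 30 of 145 S303/7A and 39 of 202 WT NK cells without it. The rho of Klrc1 and Klra4 was −0.08 in S303/7A and −0.37 in WT. The difference between the libraries was not tested.

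Counting how many of 6 Ly49 genes (Klra1, Klra3, Klra4, Klra7, Klra8 and Klra9) a thinned NK cell held, none was found in 29 of 189 S303/7A (15.3%) and 78 of 299 WT NK cells (26.1%), and 3 or more in 31.7% of S303/7A and 28.8% of WT NK cells. In C06, 97.5% of S303/7A and 95.2% of WT cells held none. Gzma was found in 5 of 29 S303/7A (17.2%) and 26 of 78 WT (33.3%) NK cells with no Ly49 transcript. In cells with 1, 2, or 3 and more, its share in S303/7A was 76.9%, 78.7% and 80.0%, and in WT 58.8%, 74.6% and 75.6%. Gzmc ran against this order, from 55.2% with none to 16.7% with 3 or more in S303/7A, and from 57.7% to 20.9% in WT. For Prf1 the shares with none and with 3 or more were both 48.3% in S303/7A, and 42.3% and 58.1% in WT.

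**Figure D5:**
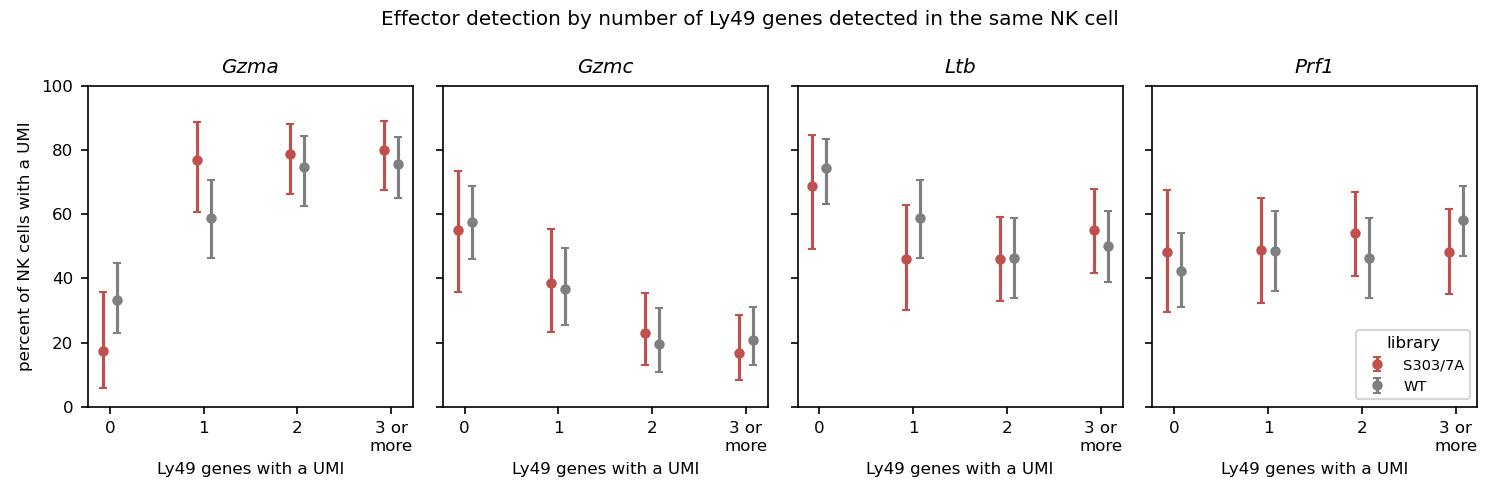
Percent of thinned NK cells that held a UMI of Gzma, Gzmc, Ltb or Prf1 (y axis) by the number of 6 Ly49 genes found in the same cell (x axis), S303/7A in red and WT in grey, with exact 95% intervals for counting error. Gzma is low in cells with no Ly49 transcript, at 17.2% in S303/7A and 33.3% in WT, and Gzmc is highest there, at 55.2% in S303/7A and 57.7% in WT.

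Part of the class carried T cell transcripts. Without thinning, no UMI of Cd3d, Cd3e, Cd3g, Trac, Cd8a or Cd8b1 was held by 110 of 194 S303/7A (56.7%) and 237 of 357 WT NK cells (66.4%), and 3 or more by 34 in S303/7A (17.5%) and 53 in WT (14.8%). These shares are not matched for depth between the libraries. The beta chain genes Trbc1 and Trbc2, which share 3′ sequence, were not among the 6 genes. In cells with no UMI of the 6, Trbc1 was held by 92.7% in S303/7A and 88.2% in WT, at 7.31 and 8.42 CP10K. Trbc2 was held by 47.3% of these cells in S303/7A and 40.1% in WT. Within a library, depth did not separate the cells with 3 or more from those with none. Median UMIs were 6063 in S303/7A and 3491 in WT for cells with 3 or more, against 5197.5 in S303/7A and 3566 in WT for cells with none. The cells with 3 or more averaged 3.55 CP10K of Gzma in S303/7A and 12.7 in WT, against 51.7 in S303/7A and 84.8 in WT for cells with none. They kept Ncr1 at 3.05 in S303/7A and 2.70 in WT, against 5.05 in S303/7A and 4.46 in WT for cells with none. Their Fcer1g stood at 17.1 in S303/7A and 18.2 in WT, against 28.1 in S303/7A and 21.6 in WT.

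These cells also held more Trdc, at 6.36 CP10K in S303/7A and 3.59 in WT, against 1.37 in S303/7A and 1.08 in WT in cells with no T cell UMI. Their Cd160 was at 2.75 in S303/7A and 3.24 in WT, against 0.889 in S303/7A and 0.619 in WT, and their Eomes at 0.350 in S303/7A and 0.667 in WT, against 2.08 in S303/7A and 1.48 in WT. Cd8a remained low in them, at 1.38 in S303/7A and 0.517 in WT. Whether they are 2 cells in 1 droplet, T cells placed in the cluster or NK cells with these transcripts was not tested.

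In NK cells with no T cell UMI, Gzma was also less often found without a Ly49 transcript, but its share did not rise steadily with their number. Among these NK cells Gzma was found in 3 of 11 S303/7A (27.3%, 6.02 to 60.97) and 16 of 46 WT (34.8%) cells with none. With 1 Ly49 gene it was found in 20 of 23 S303/7A and 29 of 41 WT cells. With 2 its share was 86.1% in S303/7A and 91.7% in WT, and with 3 or more 80.6% in S303/7A and 79.4% in WT. Gzmc was found in 72.7% of S303/7A and 63.0% of WT cells with none, and in 9 of 23 S303/7A and 16 of 41 WT cells with 1. With 2 its share was 16.7% in S303/7A and 11.1% in WT, and with 3 or more 19.4% in S303/7A and 20.6% in WT. The rho of Gzma and Ltb in these cells was −0.36 in S303/7A and −0.51 in WT, and that of Gzma and Xcl1 −0.31 in both libraries. The shares with Xcl1 lay closer in S303/7A, at 61.4% (50.1 to 71.9) with Gzma and 69.6% (47.1 to 86.8) of 23 cells without it. In WT they were 53.8% with Gzma and 74.6% without it.

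Cells with and without Gzmc differed in more than that granzyme. NK cells that held a Gzmc UMI without thinning had a median of 7779.5 UMIs in S303/7A and 4812 in WT, against 4649.5 in S303/7A and 3046 in WT for those that did not. They averaged 6.52 CP10K of Ccl5 in S303/7A and 22.1 in WT, against 68.1 in S303/7A and 69.4 in WT, and 14.3 of Gzma in S303/7A and 32.6 in WT, against 56.8 in S303/7A and 90.9 in WT. Ncr1 was close in both sets, at 4.36 in S303/7A and 4.51 in WT with Gzmc, against 5.04 in S303/7A and 4.03 in WT without. The part of depth in these differences was not tested in the unthinned cells, and the thinned rho of Gzmc with Gzma and with Ccl5 was below 0 in both libraries.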

How the data were processed

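Expression values were read as the authors deposited them: the natural log of 1 plus UMIs per 100000 UMIs of each cell, rounded. The deposited counts of UMIs and detected genes per cell and the deposited percent of mitochondrial UMIs came from the annotation, as did library, cluster (22) and class (11). Cell Ranger, Seurat 3.0 and the build mm10 (GRCm38) are named in the submitters' processing notes; the methods behind clusters, cell filters and doublet removal are not stated in the labels, and no doublet caller was run.

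Whole UMIs were recovered from these log values in 11456 cells and 16416 genes (99.9396% within 0.1 UMI of a whole number); depth per class is given with the results. No model was fitted, since there is 1 library per genotype: levels, log2 ratios (0.1 CP10K added), exact conditional intervals for UMI ratios, exact binomial intervals for shares and Spearman's rho were computed with Python 3.11.15, numpy 2.4.6, scipy 1.17.1 and pandas 2.3.3, and the calls were tested on simulated data. Positions come from GENCODE M21 and promoters from RefSeq.

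Genes named are the class markers, members of the receptor, adapter, granule, cytokine, transcription factor, T cell receptor and cytokine receptor lists, the 4 most changed members of other lists, the 10 highest and 10 lowest genes per comparison, and the leading pairs; some genes that the rule names are not reported here. The members and lists were chosen with earlier results of these data known. Alternatives changed the pseudocount, the filter, the thinning, the weighting of cells and the NK cells included. Genes with near-identical copies at the 3′ end (Ly49, Klrc1 and Klrc2, Gzmd to Gzmf, Trbc1 and Trbc2) are uncertain, since the counting may split their reads.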

Additional observations from a re-analysis of the deposited data

Results flagged for a closer look

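Of 442 comparisons of listed genes between NK cells and a comparator class, 3 went in opposite directions in the S303/7A and the WT library, with counting intervals on opposite sides of 1 and both ratios past 1.5-fold; the difference between the libraries was not tested. Gzmf, a granzyme gene of the cluster on chromosome 14, had an NK over C06 UMI ratio of 0.349 (0.273 to 0.441) in S303/7A and 9.05 (7.49 to 11) in WT, and an NK over C11 ratio of 0.572 (0.441 to 0.736) in S303/7A and 7.54 (6.53 to 8.73) in WT. Few cells carried it: 4 S303/7A NK cells held 80 UMIs, 66 of them in 1 cell, and 15 WT NK cells held 823, of which 5 cells held 72.1%. Slamf6, a SLAM-family receptor, had an NK over C11 ratio of 0.505 (0.244 to 0.963) in S303/7A and 1.93 (1.06 to 3.49) in WT, on 12 S303/7A and 23 WT UMIs in NK cells.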

How the results depend on the processing

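No paired analysis was possible because there is 1 library per genotype. Of 256 alternative values of the 34 main counts and medians, 197 stayed close and 59 moved. None was labelled reversed, but that label was open only to medians at least 2-fold in size. For counts and smaller medians it could not arise, so it says nothing about them. Counts of genes higher and lower in NK cells followed the pseudocount. With 0.01 CP10K they were 184 and 224 against C06, 326 and 736 against C11, and 70 and 60 for S303/7A over WT. With 1 CP10K they were 27 and 24 against C06, 40 and 76 against C11, 42 and 86 against Treg, and 2 and 3 for the genotypes. With a filter at 25% of cells they were 73 and 89 against C06, 132 higher against C11, 101 and 209 against Treg, and 6 and 9 for the genotypes. The genotype counts were 22 and 36 with no filter, 53 and 73 in thinned cells, and 42 and 59 without NK cells holding a T cell UMI.

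Median log2 ratios moved as follows. With 0.01 CP10K added, the activating list over Treg was 4.11 in S303/7A and 3.16 in WT, the inhibitory list 3.98 in S303/7A and 3.32 in WT, the T cell receptor list −3.12 in S303/7A and −3.21 in WT over C06 and −3.42 over Treg in WT. With 1 CP10K the activating list was 0.60 over C11 in WT, and over Treg 1.11 in S303/7A and 1.03 in WT, the inhibitory list over Treg 0.46 in S303/7A and 0.67 in WT, and the T cell receptor list −0.90 in S303/7A and −1.01 in WT over C06, −0.69 in S303/7A and −0.70 in WT over C11, and −1.30 in S303/7A and −1.42 in WT over Treg. With no filter the activating list over Treg was 2.06 in S303/7A and the inhibitory list 1.24 in WT. A filter at 0.1 CP10K gave granule genes over Treg 1.70 in WT, and thinning gave the activating list over Treg 3.24 in WT. Without NK cells holding a T cell UMI the T cell receptor list over Treg was −3.73 in S303/7A and −4.00 in WT. Without those holding a macrophage UMI, which left 7 S303/7A cells, granule genes over Treg were 2.08 and the T cell receptor list −3.31, −3.02 and −4.02 over C06, C11 and Treg in S303/7A; gene values were not run there. The cause was not tested.

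At 1000 UMIs 4 pairs were apart, in unthinned cells 32 were together and 12 apart, and without NK cells holding a T cell UMI 25 were together. Gene counts and shares without NK cells holding a T cell UMI, and the filter at 0.1 CP10K, were added after seeing the data. One pooled library per genotype allows no estimate of variation between mice, and at these depths a gene in few cells, such as Gzmf, has a level that 1 cell can set.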

Other observations

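Klra4 transcripts were also found in tumor cells. After thinning to 2000 UMIs, 3.75% of S303/7A and 5.62% of WT tumor cells held a Klra4 UMI, against 0.459% of S303/7A and 0.529% of WT C06 cells, and without thinning the tumor shares were 30.2% in S303/7A and 38.6% in WT. Klra7 was found in 0 of 934 thinned S303/7A tumor cells, which allows up to 0.394%, and in 0.129% of thinned WT tumor cells. The Klra4 level in tumor cells was 0.196 CP10K in S303/7A and 0.314 in WT, against 6.34 in S303/7A and 4.72 in WT NK cells.

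Bcl2, which encodes a survival protein, was among the 77 genes higher in NK cells than in all 3 T cell classes, at 6.03 CP10K in S303/7A and 7.08 in WT NK cells, against 1.21 in S303/7A and 1.61 in WT C06 cells, 0.547 in S303/7A and 0.702 in WT C11 cells, and 0.366 in S303/7A and 0.762 in WT Treg. Spp1, which encodes osteopontin and is abundant in macrophages, was another, at 7.46 in S303/7A and 7.99 in WT NK cells, against 1.60 in S303/7A and 2.08 in WT C06 cells. Both were chosen for mention after their values were seen.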
